A study of Arabidopsis thaliana with 12 samples.

Results

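The genes described here belong to families of detoxification enzymes in Arabidopsis thaliana: the cytochrome P450 monooxygenases (CYP), glutathione transferases (GST), UDP-glycosyltransferases (UGT) and aldehyde dehydrogenases (ALDH). Members were the probe sets paired with exactly 1 gene whose symbol starts with CYP and a digit, GST, UGT, DTX or ALDH, with the oxidative stress gene UPOX (AT2G21640) added and UGT76B1 and UGT78D2 left out. This gave 94 probe sets, each for a different gene, out of 22746 probe sets tested, of which 13513 were paired with exactly 1 gene. Another 503 were paired with several genes, and 8730 were not in the gene table used. Genes measured only by such probe sets could not become members, so the counts below may cover only a part of each family. By family, 45 were UGT, 24 P450, 14 GST and 8 ALDH genes. The last 3 were UPOX and CYP59 and CYP71, which the RefSeq annotation names cyclophilins and which share only the letters CYP with the P450 enzymes. No single-gene probe set carried a DTX symbol, so the families hold no DTX efflux carrier by this rule. AT5G52050, for which RefSeq lists DTX50 as a synonym, stood at 0.18 ± 0.16 with both agents, 0.06 ± 0.16 with BLM and 0.07 ± 0.16 with INA on the log2 scale against untreated seedlings, and passed in none of the 6 comparisons. Of the 24 P450 genes, 19 were of the CYP71B subfamily, and CYP51G2 and CYP71B27 were annotated as transcribed pseudogenes.

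The samples were wild-type seedlings on MS plates, taken whole, in 4 groups of 3 biological replicates with 1 array each. The groups were BLM+INA (4 µg/ml BLM with 10 µM INA), BLM (4 µg/ml), INA (10 µM) and CK, the untreated control. BLM is bleomycin, which breaks DNA strands, and INA is a synthetic inducer of plant immunity that acts like salicylic acid. The series title speaks of synergy of the agents on defence genes; the age of the seedlings and the length of treatment were not given in the sources used here. The deposited values were centred per probe set on 0 across the 12 arrays. All values below are therefore differences on the log2 scale, never expression levels.

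Plants inactivate foreign and self-made toxic compounds in steps. P450 enzymes insert oxygen into them, GST and UGT enzymes attach glutathione or a sugar, and membrane carriers move the products into the vacuole or out of the cell. ALDH enzymes oxidise reactive aldehydes that arise when membranes or sugars are damaged. Many members of the same families have other duties: P450 and UGT enzymes also make or inactivate hormones, lignin precursors, flavonols and glucosinolates.

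The median value of an array ranged from -0.0208 to 0.0255, and with 3 arrays in a group their number sets the precision. Both organs of the seedling could be checked by a few genes. Of 5 root markers, 3 had a single-gene probe set, and their mean value lay between -0.41 and -0.36 in BLM+INA, -0.34 and -0.32 in BLM, 0.22 and 0.35 in INA and 0.32 and 0.44 in CK. The root hair expansin genes EXPA7 (-1.21 ± 0.12, SE) and EXPA18 (-0.82 ± 0.11) fell with BLM, and PYK10, which encodes a beta-glucosidase of root ER bodies, did not pass (-0.06 ± 0.10). Of 6 green shoot markers, 2 had a probe set, and their mean lay between -0.26 and -0.21 in BLM+INA, -0.15 and -0.10 in BLM, 0.08 and 0.16 in INA and 0.14 and 0.19 in CK. Of these, PSAN fell with BLM (-0.52 ± 0.09) and LHCB4.2 did not pass (-0.06 ± 0.09). With both agents PSAN (-0.52 ± 0.09) and LHCB4.2 (-0.275 ± 0.09) fell. In whole seedlings, fewer cells of a type and less RNA per cell cannot be told apart. The part of these shifts in the changes below was not tested.

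A member was called changed where limma's two-sided test, adjusted by the Benjamini-Hochberg method over all 22746 probe sets, gave a p under 0.05. With both agents against CK, 25 members rose and 9 fell, together 36.2% of the 94, beside 22.2% of all probe sets tested. With BLM against CK, 18 rose and 5 fell, 24.5% of the members beside 16.7% of all probe sets. With INA against CK, 3 rose and none fell, 3.19% of the members beside 1.16% of all probe sets (0.91% for rises). The excess lay in the rises. With both agents 26.6% of the members rose, beside 11.2% of all probe sets, while 9.57% fell, beside 11%. With BLM, 19.1% rose, beside 8.38%, and 5.32% fell, beside 8.29%. The median change of the members was 0.11 with both agents, 0.11 with BLM and 0.03 with INA, against 0.02, 0.04 and 0.01 over all probe sets, so most members moved little. Called and at least 2-fold with both agents were 7 members, beside 3.94% of all probe sets. These are counts and medians, with no test of the families as sets.

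The 3 comparisons share the CK arrays. Of the 94 members, 57 were called in none of them, 19 with BLM and with BLM+INA, 12 with BLM+INA alone, 3 with BLM alone, 2 with INA and with BLM+INA, and 1 with each treatment. Arrays of the treated group and of CK did not overlap for 42 members with both agents, 32 with BLM and 17 with INA, beside 37.6%, 32.8% and 12.6% of all probe sets. By family, 8 of 24 P450 genes rose and 1 fell with both agents, 11 of 45 UGT genes rose and 5 fell, 3 of 14 GST genes rose and 3 fell, and 2 of 8 ALDH genes rose and none fell. The cyclophilin genes CYP59 (-0.10 ± 0.14) and CYP71 (-0.14 ± 0.10) did not pass with both agents. Leaving out 1 array at a time gave between 25 and 34 calls for both agents, between 19 and 23 for BLM and between 1 and 3 for INA, the last falling to 1 without CK replicate 2, INA replicate 1 or INA replicate 3. With variances that were not moderated, 0 members were called with INA.

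**Figure D1:**
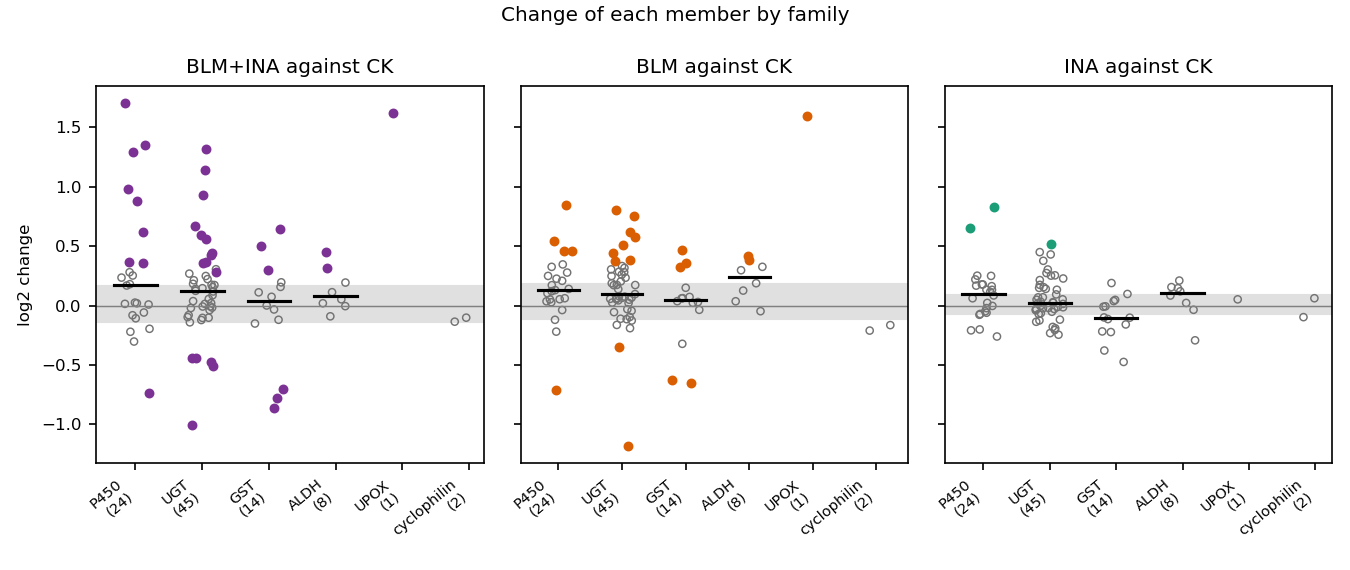
Log2 change of each member against CK (vertical axis) by family, with the number of members below each name, for BLM+INA, BLM and INA. Filled points passed an adjusted p of 0.05, open points did not, black bars are family medians and the grey band spans the middle quartiles of all 22746 probe sets. Most points lie in or near the band, while UPOX and a few P450 and UGT genes lie far above it with both agents.

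**Figure D2:**
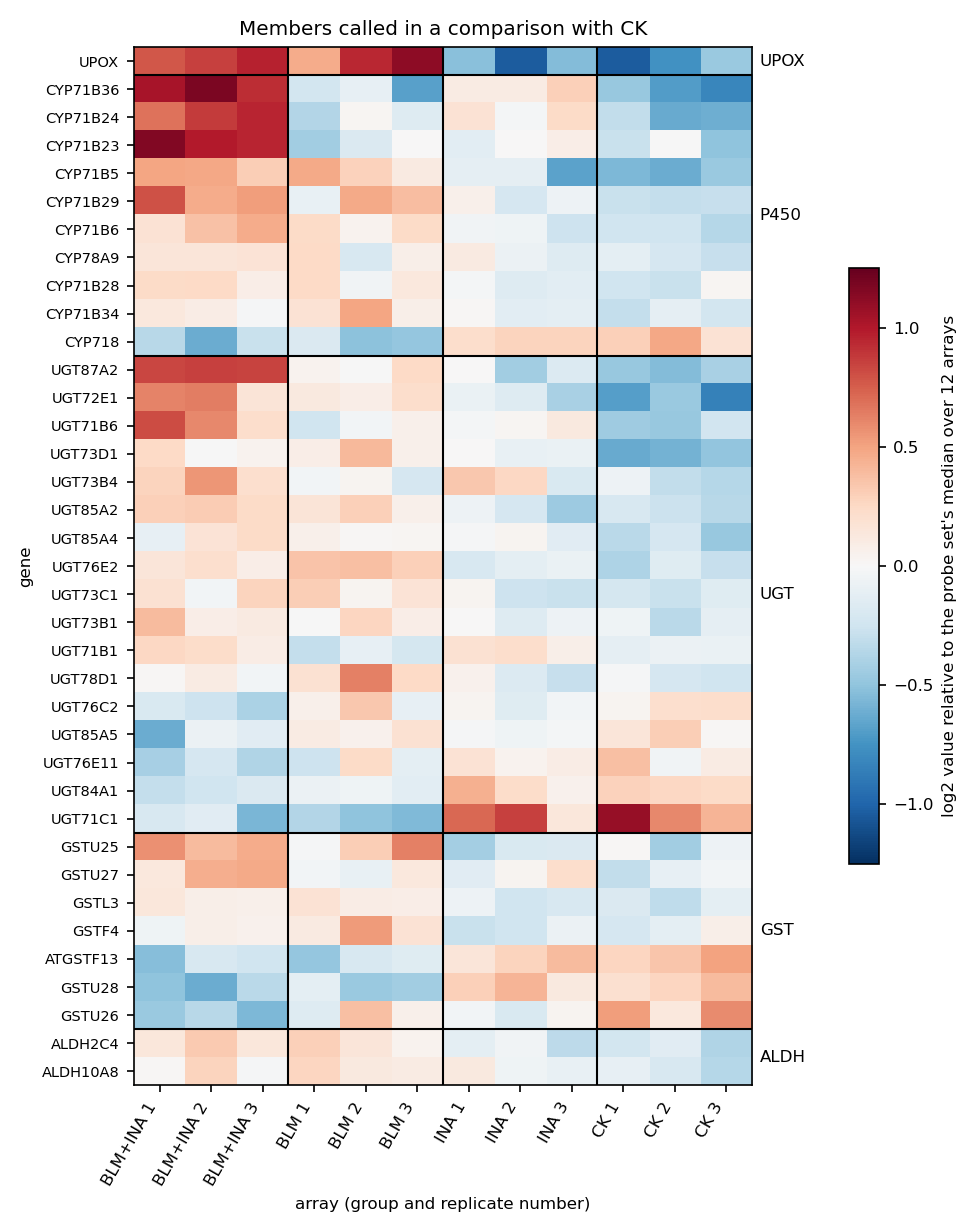
Centred log2 value of the members called in a comparison with CK (rows, by family and by change with both agents) on each of the 12 arrays (columns, by group and replicate number). Red is above and blue below the probe set's median; CYP71B36, CYP71B24, CYP71B23 and UGT87A2 are reddest on the BLM+INA arrays, while UPOX is red on all 6 arrays with BLM.

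The single largest rise with BLM was that of UPOX, whose name stands for up-regulated by oxidative stress. Its values were 0.78, 0.85 and 0.96 in BLM+INA, 0.47, 0.94 and 1.12 in BLM, -0.52, -1.04 and -0.55 in INA and -1.04, -0.76 and -0.47 in CK. All 6 arrays with BLM lay above all 6 without it. The change was 1.62 ± 0.17 with both agents, 1.59 ± 0.17 with BLM and 0.05 ± 0.17 with INA (SE, n = 3 each; limma adjusted p = 1.79e-06, 3.68e-06 and 1). That is a 3.07-fold rise with both agents and a 3.02-fold rise with BLM. Adding INA to BLM moved UPOX by 0.02 ± 0.17 (adjusted p = 0.967).

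Among the P450 genes, 3 of the CYP71B subfamily were highest with both agents. CYP71B enzymes form one of the largest P450 subfamilies of Arabidopsis, and the substrates of most are not settled. CYP71B36 had values of 1.03, 1.18 and 0.92 in BLM+INA, -0.23, -0.10 and -0.67 in BLM, 0.10, 0.11 and 0.30 in INA and -0.47, -0.70 and -0.81 in CK. The BLM+INA arrays lay above all others, and the INA arrays above those of BLM and CK, which overlapped. It rose by 1.70 ± 0.14 with both agents (adjusted p = 6.13e-08, 3.26-fold) and by 0.83 ± 0.14 with INA (adjusted p = 0.00282), and stood at 0.33 ± 0.14 with BLM (adjusted p = 0.123). With BLM it passed without BLM replicate 3 (0.50). Its probe set was in the class of log2 levels from 2 to 4, the lowest of the signal classes given below.

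CYP71B24 had values of 0.68, 0.88 and 0.95 in BLM+INA, -0.37, 0.02 and -0.16 in BLM, 0.18, -0.02 and 0.24 in INA and -0.31, -0.63 and -0.61 in CK. Again the 3 BLM+INA arrays were highest, and BLM replicate 1 lay within the range of the CK arrays. It rose by 1.35 ± 0.13 with both agents (adjusted p = 3.45e-07, 2.55-fold) and by 0.65 ± 0.13 with INA (adjusted p = 0.0107), and stood at 0.35 ± 0.13 with BLM (adjusted p = 0.0699). The INA call was lost without CK replicate 2 (0.59) or 3 (0.60) or INA replicate 1 (0.63) or 3 (0.60), and BLM passed without CK replicate 1 (0.45) or BLM replicate 1 (0.45). CYP71B23 had values of 1.16, 0.99 and 0.95 in BLM+INA, -0.43, -0.18 and 0.01 in BLM, -0.13, 0.01 and 0.09 in INA and -0.28, -0.01 and -0.50 in CK. The BLM, INA and CK arrays overlapped, and the BLM+INA arrays stood apart above them. It rose by 1.30 ± 0.13 with both agents (adjusted p = 1.1e-06, 2.46-fold) and stood at 0.06 ± 0.13 with BLM and 0.25 ± 0.13 with INA (adjusted p = 0.806 and 0.779).

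Other P450 genes rose with BLM against CK, and 3 of the 4 described next also rose with both agents. CYP71B5 had values of 0.49, 0.48 and 0.31 in BLM+INA, 0.47, 0.29 and 0.11 in BLM, -0.12, -0.11 and -0.67 in INA and -0.56, -0.62 and -0.47 in CK. All arrays with BLM lay above all without it. CYP71B5 rose by 0.98 ± 0.14 with both agents and 0.85 ± 0.14 with BLM (adjusted p = 4e-05 and 0.000277). CYP71B29 rose by 0.88 ± 0.13 with both and 0.54 ± 0.13 with BLM, where the call was lost without BLM replicate 2 (0.44). CYP71B6, an enzyme of indole-3-acetonitrile metabolism, rose by 0.62 ± 0.11 with both and 0.46 ± 0.11 with BLM. CYP71B34 rose by 0.46 ± 0.11 with BLM and stood at 0.28 ± 0.11 with both, where it passed without BLM replicate 2 (0.28).

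CYP718 was the only P450 member that fell in a comparison with CK; it fell by 0.74 ± 0.12 with both agents and fell by 0.71 ± 0.12 with BLM (adjusted p = 0.000164 and 0.000369), with -0.06 ± 0.12 for INA. Its arrays lay between -0.62 and -0.28 in BLM+INA, -0.51 and -0.18 in BLM, 0.22 and 0.28 in INA and 0.18 and 0.48 in CK, with no overlap between arrays with and without BLM. The remaining rises with both agents were those of CYP71B28 (0.36 ± 0.11) and CYP78A9 (0.37 ± 0.11), a gene of the family that promotes organ growth. The call of CYP71B28 was lost without CK replicate 1 (0.32) or 2 (0.30) or BLM+INA replicate 1 (0.34) or 2 (0.33), that of CYP78A9 without CK replicate 2 (0.36) or 3 (0.33) or any 1 BLM+INA replicate (0.37, 0.37 and 0.36). CYP79A2, which makes phenylacetaldoxime, and CYP84A4, of arabidopyrone synthesis, stood at 0.02 ± 0.11 and -0.20 ± 0.13 with both. The 15 P450 genes not called with both agents lay between -0.30 and 0.28.

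**Figure D3:**
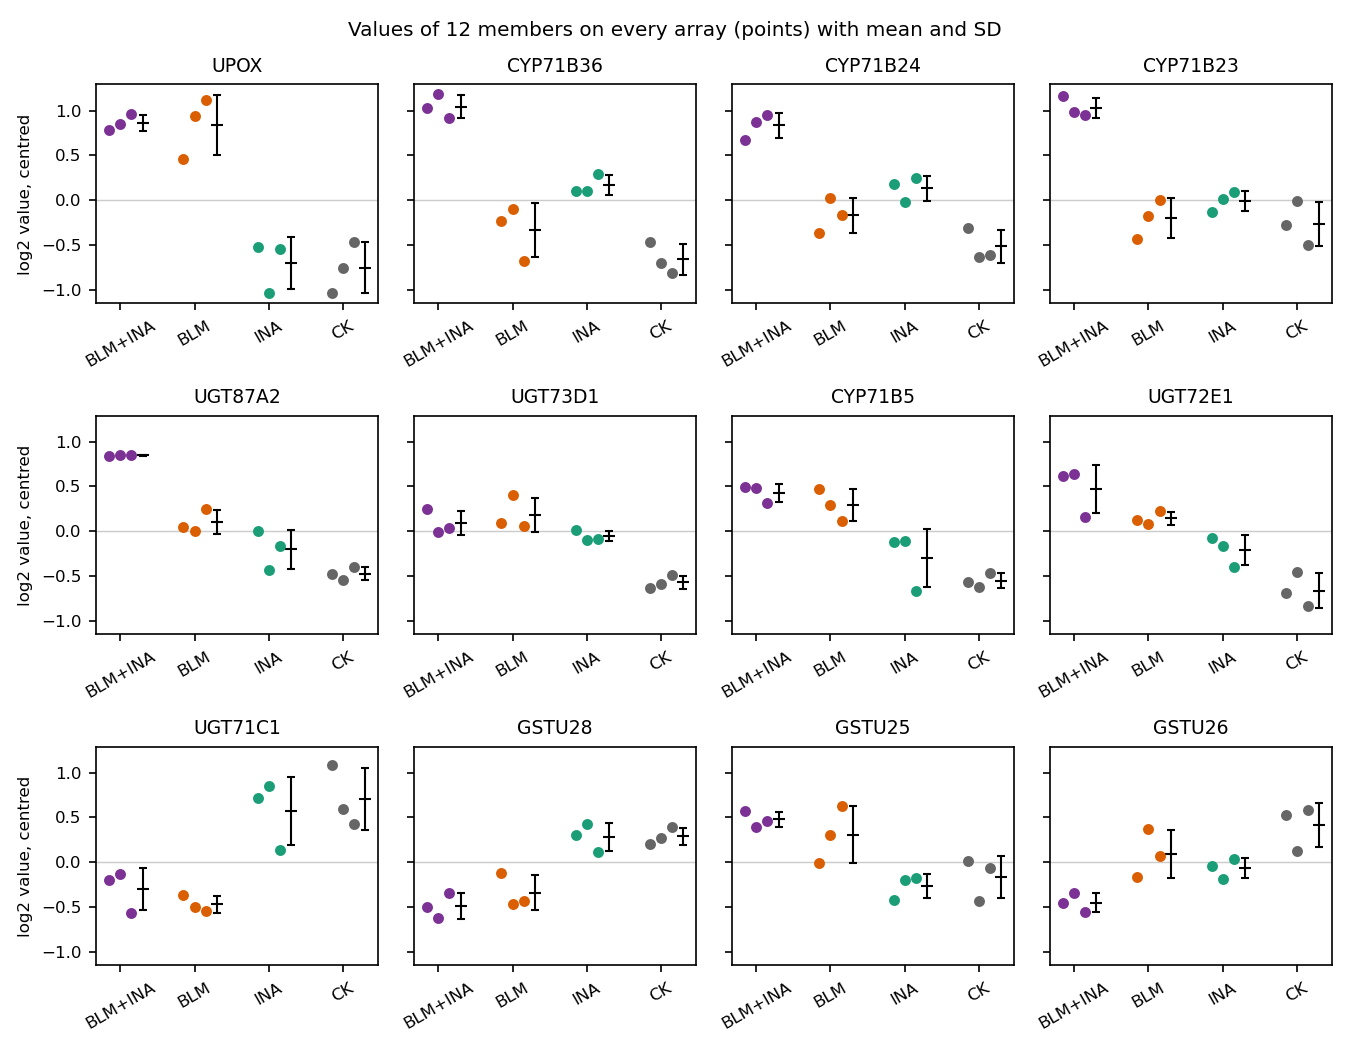
Centred log2 values of 12 members on every array (points; horizontal axis, the 4 groups; vertical axis, log2 value), with the group mean and SD (n = 3) beside the points. In UPOX and CYP71B5 the BLM+INA and BLM arrays lie above the rest, in CYP71B36, CYP71B24, CYP71B23 and UGT87A2 the BLM+INA arrays stand alone at the top, and in UGT73D1 the CK arrays stand alone at the bottom.

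UGT enzymes join a sugar to hormones, phenolics, flavonols or foreign compounds. UGT87A2, known for an effect on flowering time, rose most with both agents. Its values were 0.84, 0.85 and 0.85 in BLM+INA, 0.05, -0.001 and 0.25 in BLM, 0.001, -0.43 and -0.17 in INA and -0.48, -0.55 and -0.40 in CK. The BLM+INA arrays lay close together above all others, and the BLM arrays above those of CK. UGT87A2 rose by 1.32 ± 0.11 with both agents (adjusted p = 1.18e-07, 2.5-fold) and 0.57 ± 0.11 with BLM (adjusted p = 0.00147), and stood at 0.27 ± 0.11 with INA (adjusted p = 0.528).

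UGT73D1 was the member called with every treatment. Its values were 0.25, -0.01 and 0.04 in BLM+INA, 0.09, 0.40 and 0.06 in BLM, 0.01, -0.09 and -0.08 in INA and -0.63, -0.60 and -0.49 in CK. The CK arrays lay below all 9 treated arrays, and the BLM+INA and BLM arrays overlapped. It rose by 0.67 ± 0.11 with both agents, 0.76 ± 0.11 with BLM and 0.52 ± 0.11 with INA (adjusted p = 0.000197, 8.59e-05 and 0.0223). The INA call was lost without CK replicate 1 (0.49) or 2 (0.51) or any 1 INA replicate (0.49, 0.54 and 0.53).

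Of the enzymes that act on lignin precursors and hydroxycinnamates, UGT72E1, which glucosylates coniferyl and sinapyl aldehydes, rose and UGT84A1, which makes hydroxycinnamate glucose esters, fell. UGT72E1 had values of 0.62, 0.64 and 0.16 in BLM+INA, 0.12, 0.08 and 0.22 in BLM, -0.08, -0.16 and -0.40 in INA and -0.69, -0.46 and -0.84 in CK. The arrays with BLM lay above those without it, and the INA arrays above those of CK. UGT72E1 rose by 1.14 ± 0.14 with both agents and 0.81 ± 0.14 with BLM (adjusted p = 6.31e-06 and 0.000367), and stood at 0.45 ± 0.14 with INA (adjusted p = 0.19). UGT72E2 (0.17 ± 0.15) and UGT72E3 (-0.08 ± 0.09), of the same UGT72E group, did not pass with both. UGT84A1 fell by 0.51 ± 0.10 with both and fell by 0.35 ± 0.10 with BLM. The BLM call was lost without any 1 CK replicate (-0.34, -0.35 and -0.36) or BLM replicate 1 (-0.36) or 3 (-0.33). UGT84A3 (0.12 ± 0.17) and UGT84A4 (-0.12 ± 0.12) did not pass.

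UGT71C1, a glucosyltransferase of phenolics, had the largest fall of the 94 members with both agents and with BLM. Its values were -0.20, -0.14 and -0.57 in BLM+INA, -0.37, -0.50 and -0.55 in BLM, 0.72, 0.85 and 0.14 in INA and 1.09, 0.60 and 0.43 in CK. All arrays with BLM lay below all without it. It fell by 1.01 ± 0.18 with both agents (adjusted p = 0.000466, 2.01-fold lower) and fell by 1.18 ± 0.18 with BLM (adjusted p = 0.00015, 2.26-fold lower), and stood at -0.14 ± 0.18 with INA. Like UGT71C1, UGT84A1, CYP718, GSTU28 and ATGSTF13, the root hair genes EXPA7 and EXPA18 and the green shoot gene PSAN were lower with BLM. Their values are given above, where PYK10 and LHCB4.2 did not pass with BLM. The part of the marker changes in these falls was not tested.

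For hormone conjugation, UGT71B6, which glucosylates abscisic acid, rose by 0.94 ± 0.13 with both agents (adjusted p = 4.78e-05) and stood at 0.32 ± 0.13 with BLM and 0.43 ± 0.13 with INA (adjusted p = 0.124 and 0.216). Its arrays lay between 0.22 and 0.82 in BLM+INA, -0.25 and 0.07 in BLM, -0.02 and 0.13 in INA and -0.48 and -0.24 in CK. UGT71C5 and UGT71B8, which act on the same hormone, stood at 0.25 ± 0.13 and 0.12 ± 0.13 with both. Of the cytokinin N-glucosyltransferases, UGT76C2 fell by 0.44 ± 0.12 with both agents, against -0.06 ± 0.12 with BLM and -0.21 ± 0.12 with INA, and UGT76C1 stood at -0.04 ± 0.09. The auxin enzymes UGT84B1 (0.14 ± 0.14) and UGT74D1 (0.15 ± 0.13) and the salicylic acid enzyme UGT74F1 (-0.10 ± 0.12) did not pass with both.

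In flavonol glycosylation, UGT78D1, a rhamnosyltransferase, rose by 0.51 ± 0.12 with BLM (adjusted p = 0.00785) and stood at 0.18 ± 0.12 with both agents, while UGT78D3 stood at -0.14 ± 0.14. UGT76E2 rose by 0.42 ± 0.09 with both and 0.62 ± 0.09 with BLM. Among enzymes known to conjugate foreign nitroaromatics, UGT73B4 rose by 0.59 ± 0.14 with both agents, and UGT73C1 rose by 0.36 ± 0.11 with both and 0.39 ± 0.11 with BLM. UGT73C1 lost the call with both without CK replicate 1 (0.36) or 2 (0.33) or BLM+INA replicate 1 (0.34) or 3 (0.30), and the call with BLM without CK replicate 1 (0.39) or 2 (0.36) or BLM replicate 1 (0.32) or 3 (0.39). The glucosinolate enzyme UGT74B1 (-0.02 ± 0.13) and the sterol enzyme UGT80B1 (0.15 ± 0.09) did not pass. UGT76E11 fell by 0.47 ± 0.13 and UGT85A5 fell by 0.44 ± 0.13 with both agents. These calls were lost without CK replicate 1 (-0.36) or BLM+INA replicate 1 (-0.43) for UGT76E11, and without CK replicate 2 (-0.36) or BLM+INA replicate 1 (-0.27) for UGT85A5. The 29 UGT genes not called with both agents lay between -0.14 and 0.31.

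GST enzymes were divided in direction with both agents, as all probe sets were. Of the GST genes 21.4% rose and 21.4% fell, beside 11.2% and 11% of all probe sets. Of the 14, 11 were of the plant-specific tau class (GSTU), and in that class 2 rose and 2 fell with both agents. GSTU25, which conjugates glutathione to nitroaromatics, had values of 0.57, 0.40 and 0.46 in BLM+INA, -0.01, 0.30 and 0.63 in BLM, -0.42, -0.19 and -0.18 in INA and 0.01, -0.43 and -0.07 in CK. The BLM+INA arrays lay above those of INA and CK, while the BLM arrays spread over a wide range and overlapped those of CK. It rose by 0.64 ± 0.15 with both agents (adjusted p = 0.00366) and 0.47 ± 0.15 with BLM (adjusted p = 0.0353). The BLM call was lost without CK replicate 2 (0.34) or 3 (0.52) or BLM replicate 2 (0.47) or 3 (0.31).

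GSTU26 had values of -0.46, -0.34 and -0.56 in BLM+INA, -0.16, 0.37 and 0.07 in BLM, -0.04, -0.19 and 0.04 in INA and 0.52, 0.13 and 0.59 in CK. The BLM+INA arrays lay below all others. GSTU26 fell by 0.87 ± 0.14 with both agents (adjusted p = 0.000159, 1.82-fold lower), and stood at -0.32 ± 0.14 with BLM and -0.47 ± 0.14 with INA (adjusted p = 0.133 and 0.172). With BLM it passed without CK replicate 2 (-0.46) or BLM replicate 2 (-0.46).

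GSTU28 had values of -0.51, -0.62 and -0.34 in BLM+INA, -0.12, -0.46 and -0.43 in BLM, 0.30, 0.43 and 0.12 in INA and 0.20, 0.27 and 0.40 in CK. The arrays with BLM lay below those without it. GSTU28 fell by 0.78 ± 0.12 with both agents and fell by 0.63 ± 0.12 with BLM (adjusted p = 9.34e-05 and 0.00113). The phi class gene ATGSTF13 fell likewise: it fell by 0.70 ± 0.12 with both and fell by 0.65 ± 0.12 with BLM (adjusted p = 0.000299 and 0.000897). GSTU27 rose by 0.50 ± 0.12 with both agents. The lambda class gene GSTL3 rose by 0.30 ± 0.09 with both and 0.33 ± 0.09 with BLM, and GSTF4 rose by 0.36 ± 0.12 with BLM and stood at 0.11 ± 0.12 with both. Without 1 array at a time, GSTL3 lost its call in 5 of 12 fits with both (any 1 BLM+INA replicate, CK replicate 1 or 2; 0.24 to 0.31) and in 3 with BLM (CK replicate 1 or 2, BLM replicate 1; 0.27 to 0.34). GSTF4 lost it in 7 (CK replicate 1 or 2, INA replicate 1 or 2, BLM replicate 2, BLM+INA replicate 2 or 3; 0.23 to 0.36). The 8 GST genes not called with both agents lay between -0.15 and 0.20.

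In the ALDH family the changes were small. ALDH2C4, which oxidises coniferaldehyde and sinapaldehyde to the free acids, had values of 0.14, 0.33 and 0.14 in BLM+INA, 0.30, 0.15 and 0.05 in BLM, -0.12, -0.05 and -0.33 in INA and -0.23, -0.15 and -0.38 in CK. Arrays with BLM lay above those without it. ALDH2C4 rose by 0.45 ± 0.11 with both agents and 0.42 ± 0.11 with BLM (adjusted p = 0.00539 and 0.0138), and the BLM call was lost without CK replicate 3 (0.35) or BLM replicate 1 (0.35). The aminoaldehyde dehydrogenase gene ALDH10A8 rose by 0.31 ± 0.11 with both (adjusted p = 0.0498) and 0.38 ± 0.11 with BLM (adjusted p = 0.0224). Its call with both was lost in 8 of 12 fits without 1 array (CK replicate 2 or 3, INA replicate 2 or 3, BLM replicate 2 or 3, BLM+INA replicate 1 or 2; 0.22 to 0.35), and with BLM it was lost without CK replicate 2 (0.39) or 3 (0.31) or BLM replicate 1 (0.33). Its paralogue ALDH10A9 stood at 0.19 ± 0.12 with both and 0.33 ± 0.12 with BLM. ALDH3F1 stood at 0.11 ± 0.11 with both, 0.30 ± 0.11 with BLM and -0.29 ± 0.11 with INA. With BLM it passed without BLM replicate 1 (0.38). The remaining 4 genes, among them the stress gene ALDH7B4 (0.05 ± 0.10) and ALDH6B2 of valine breakdown (-0.09 ± 0.10), lay between -0.09 and 0.05 with both agents.

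Many members lie side by side in the genome. By gene order in the RefSeq annotation of TAIR10.1, 54 members formed 18 runs of the same family in which neighbouring members had at most 9 other genes between them. With both agents, 4 runs had no call, 12 had calls in 1 direction for a part of their members, and 2 had calls in both directions. In 0 of the 18 runs were all members called the same way. With both agents 26.6% of the 94 members rose and 9.57% fell. How many such runs these shares alone would give was not computed, so the count says nothing particular about neighbours. In the longest run, 11 CYP71B genes of chromosome 3 from CYP71B16 to CYP71B37, CYP71B23, CYP71B24 and CYP71B36 rose and the other 8 did not pass. CYP71B22, the gene next to CYP71B23, stood at 0.18 ± 0.11, and CYP71B35 and CYP71B37, on both sides of CYP71B36, stood at -0.30 ± 0.16 and -0.08 ± 0.13.

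The runs with calls in both directions were GSTU25 with GSTU26, adjacent on chromosome 1, and a run of 4 UGT85A genes on the same chromosome. In the second, UGT85A2 rose by 0.56 ± 0.11 and the next gene, UGT85A5, fell as given above, while UGT85A7 (0.21 ± 0.10) and UGT85A3 (-0.10 ± 0.11) did not pass. Next to UGT71C1, which fell, UGT71C2 stood at 0.31 ± 0.11 with both agents (and passed without INA replicate 3, at 0.31). Next to CYP71B5, which rose, CYP71B30P stood at -0.22 ± 0.14. Probe sets of near-identical neighbours may bind RNA of both genes, which was not tested.

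**Figure D4:**
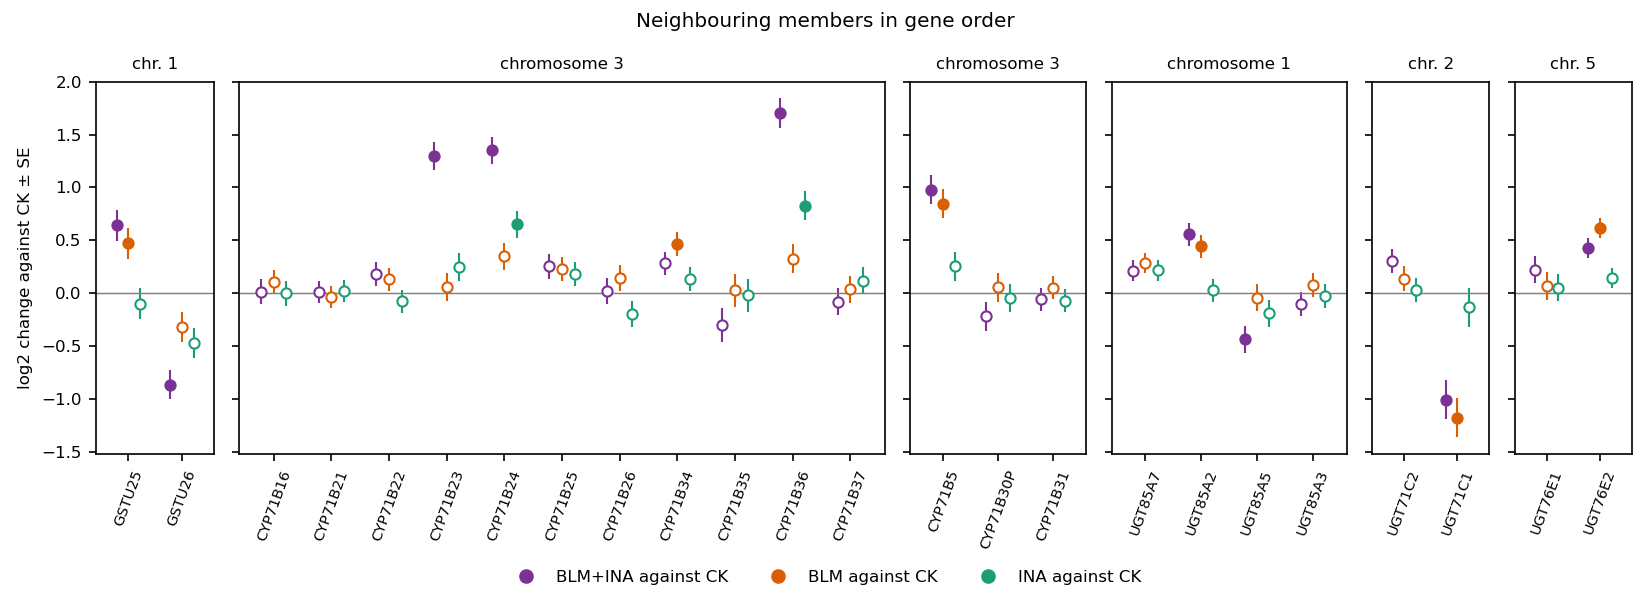
Log2 change against CK with SE (vertical axis) of members in 6 runs of neighbouring genes, in gene order (horizontal axis, not to scale in distance). Colours stand for BLM+INA, BLM and INA against CK, and filled points passed an adjusted p of 0.05. With both agents, rises of CYP71B23, CYP71B24 and CYP71B36 stand among neighbours that did not pass, of which CYP71B34 passed with BLM. GSTU25 and GSTU26 lie on opposite sides of 0 with both agents and with BLM.

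Setting BLM+INA against BLM shows the change that INA brought when BLM was present. Between BLM+INA and BLM, 6 members rose and 1 fell, 7.45% of the 94 beside 5.81% of all probe sets (3.44% rose and 2.37% fell). Arrays did not overlap for 18 members, beside 20.7% of all probe sets. CYP71B36 rose by 1.38 ± 0.14, CYP71B23 by 1.23 ± 0.13 and CYP71B24 by 1.005 ± 0.13 (adjusted p = 3.34e-06, 8.5e-06 and 4.43e-05). UGT87A2 rose by 0.75 ± 0.11 (adjusted p = 0.000319), UGT71B6 by 0.62 ± 0.13 and UGT71B1, a UGT gene near UGT71B6 on chromosome 3, by 0.40 ± 0.09. GSTU26 fell by 0.54 ± 0.14 (adjusted p = 0.0267). Without BLM+INA replicate 1 the count was 4, as GSTU26 (-0.54), UGT71B6 (0.48) and UGT71B1 (0.37) lost their calls. GSTU26 also lost it without BLM replicate 2 (-0.40) or 3 (-0.56) or BLM+INA replicate 3 (-0.49), UGT71B6 without BLM replicate 1 (0.53), and UGT71B1 without BLM replicate 1 (0.35) or BLM+INA replicate 2 (0.38). UPOX, CYP71B5 (0.13 ± 0.14) and UGT71C1 (0.17 ± 0.18) did not pass in this comparison.

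Relative to INA alone, adding BLM raised 15 members and lowered 6, 22.3% of the 94 beside 18.8% of all probe sets (9.27% rose and 9.52% fell). At least 2-fold were 3 members, beside 2.78% of all probe sets, and arrays did not overlap for 37, beside 33.7%. UPOX rose most, by 1.57 ± 0.17 (adjusted p = 4.08e-06), followed by UGT87A2 (1.05 ± 0.11), CYP71B23 (1.05 ± 0.13), CYP71B36 (0.88 ± 0.14) and GSTU25 (0.74 ± 0.15). UGT71C1 fell by 0.87 ± 0.18, GSTU28 fell by 0.77 ± 0.12, CYP718 fell by 0.68 ± 0.12, ATGSTF13 fell by 0.60 ± 0.12 and UGT84A1 fell by 0.48 ± 0.10. None of these 10 calls was lost without 1 array. ALDH3F1 rose by 0.40 ± 0.11 (adjusted p = 0.0176) in this comparison, a call lost without INA replicate 1 (0.34) or 2 (0.36) or BLM+INA replicate 1 (0.35).

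The interaction is the change with both agents less those with BLM and with INA, and it is 0 where the log2 changes with the single agents add up to that with both. It was called for 1 of the 94 members, CYP71B23, 1.06% beside 0.382% of all probe sets (0.303% above and 0.0791% below the sum), at 0.98 ± 0.19 above the sum (adjusted p = 0.0236). Its call was lost in 7 of 12 fits, those without CK replicate 1 (0.995) or 2 (0.857), INA replicate 1 (0.924) or 2 (0.996), BLM replicate 1 (0.869) or 2 (0.997), or BLM+INA replicate 1 (0.922). A further quantile normalization, run on the centred values, gave 0.69 (adjusted p = 0.257). That step makes the spread of the deviations equal on all arrays, so it can itself reduce a large change. With variances that were not moderated the adjusted p was 0.367. CYP71B36 stood at 0.55 ± 0.19, UGT87A2 at 0.47 ± 0.16 and UGT73D1 at -0.61 ± 0.16 (adjusted p = 0.441, 0.381 and 0.142). On the linear scale, where the sum is of differences and not of ratios, CYP71B23 passed above the sum with adjusted p = 0.000783, and CYP71B36 and UGT87A2 passed too, with adjusted p = 0.0102 and 0.0128. An unadjusted p under 0.05 was found for 7 members, 3 of them below the sum, and for 7.47% of all probe sets, so this count lies at the background. UPOX stood at -0.03 ± 0.24.

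**Figure D5:**
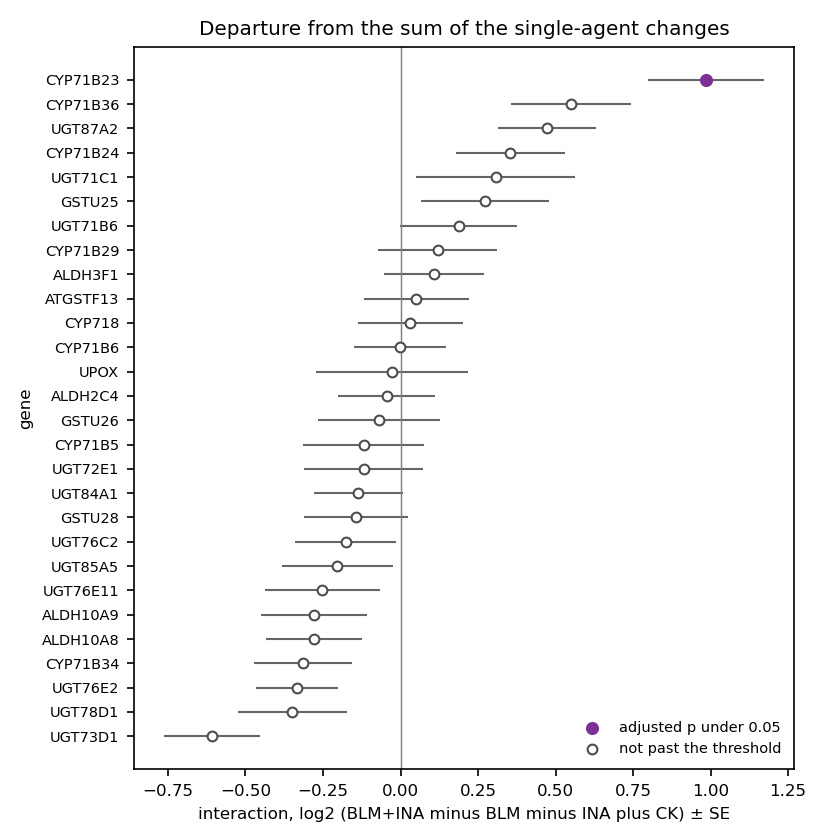
Interaction of BLM and INA for the 28 members chosen by the rule for named genes (rows), as the log2 value of BLM+INA minus BLM minus INA plus CK with SE (horizontal axis). Points right of 0 lie above the sum of the single changes and points left of it below; CYP71B23 at 0.98 is the filled point past the threshold.

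Calls were more frequent at higher signal. Centring removed the levels, but the rounding of the deposited values keeps a broad class of each. In the class of log2 levels from 2 to 4 were 19.1% of the members and 23.6% of all probe sets. With both agents 22.2% of those members were called, beside 6.4% of those probe sets. The called members of this weakest class were CYP71B36, CYP718, UGT71B6 and UGT73C1. In the class from 4 to 8, 36.7% of members were called beside 25.4% of all, and in the class of 8 or over 44.4% beside 29.6%. Of 26 genes listed as partners of these enzymes (glutathione synthesis, vacuolar transporters, TGA factors), 2 had a single-gene probe set. Both are glutathione reductases: GR1 stood at 0.11 ± 0.10 and GR2 at -0.04 ± 0.14 with both agents, and neither passed in any of the 6 comparisons. No gene of the 5 lists of P450 enzymes of hormone, glucosinolate, cutin or triterpene metabolism had such a probe set, so these roles were not analysed here. Whether these genes are measured by some of the 8730 probe sets not in the gene table was not tested.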

How the data were processed

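Biotin-labelled RNA of each sample was measured on a 1-colour array, per the labels. The deposited values are log2 values made by the authors with RMA (background correction, quantile normalization, probe summary), per the submitters' processing notes, version not given in the sources used here. In the table every probe set has a median of 0 (at most 5e-07 from it), so a centring step followed RMA, and log base 2 is taken from RMA. Of 22810 probe sets, 64 controls were set aside. Symbols came from a gene table and RefSeq (TAIR10.1).

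With limma 3.58.1 in R 4.3.3, a mean for each group was fitted to the 12 arrays together, which left 8 residual degrees of freedom beside a prior of 8.82. The script was tested on simulated data. The fold change is 2 to the power of the log2 change. Members and gene lists were chosen with earlier results of these data known. Named were UPOX, the 10 largest rises and falls against CK with arrays that do not overlap, the 5 largest each way in the other comparisons, and 4 per family. Further members, named as neighbours, paralogues or members of small groups, were chosen after their values were seen. Alternatives were array centring, quantile normalization, array weights, robust variances, variances without moderation, the replicate block, the compared groups only, no dim probe sets, single-gene probe sets, gene means, the linear scale for the interaction and each array left out. The level classes needed 10 of 12 arrays on the same number grid. Figures were drawn with matplotlib 3.10.9.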

Additional observations from a re-analysis of the deposited data

Results flagged for a closer look

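CYP71B23 was marked because the effect of INA differed with and without BLM by the test of the difference itself, the interaction. INA moved it by 1.23 ± 0.13 on top of BLM, against 0.25 ± 0.13 without BLM, a difference of 0.985 (SE 0.19, limma adjusted p = 0.0236). As given above, this call was lost in 7 of 12 fits without 1 array, after quantile normalization and with variances that were not moderated. Groups of 3 arrays are too small for the test of single outlying arrays.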

How the results depend on the processing

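The counts of called members with BLM and with both agents against CK, and with both against INA, stayed within 1.5 times of 23, 34 and 21 under every alternative run (16 to 24, 25 to 35 and 18 to 27), and the leave-one-out fits gave 19 to 23, 25 to 34 and 18 to 23. With INA against CK, 3 members were called, 0 with unmoderated variances, 1 without the 4 arrays numbered 3 (an alternative chosen after seeing the data) and 1 to 3 without 1 array. The interaction count of 1 was 0 after quantile normalization and 0 with unmoderated variances, and 0 to 1 without 1 array. For BLM+INA against BLM, 7 members were called, and 4 to 8 without 1 array. With the replicate number as a block, 11 were called in that comparison, the 7 among them; the block gave 3, 24, 34, 27 and 1 for INA, BLM and both against CK, both against INA and the interaction. Arrays numbered 3 deviated together (r from 0.23 to 0.41 over probe sets). Those numbered 1 (0.05 to 0.22) and those numbered 2 (-0.05 to 0.08) lay within the range of arrays of different numbers. Arrays of different numbers ranged from -0.36 to 0.25, and 6 of 12 arrays correlated best with their own number. The numbers were therefore not taken as pairs. The arrays numbered 3 still share a deviation whose cause was not tested. Whether those numbered 1 share one was not tested either. No called change of a named member turned its direction. Unmoderated variances ended 13 calls of named members and the fit without the arrays numbered 3 ended 15; the cause was not tested. Centring removed the levels, so weak signal over background could be judged by class only.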
